A study of Homo sapiens with 12 samples.

Results

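Cytosolic nucleic acid sensing was followed through 10 genes in PC9, an established human cell line from a lung adenocarcinoma with an activating EGFR mutation. The genes were found by symbol among the 62754 Ensembl identifiers of the count table, and all 10 were present: CGAS, STING1, TREX1, ZBP1, RIGI, IFIH1, MAVS, TBK1, IRF3 and IRF7. RNA was sequenced from 12 libraries, 3 replicate cultures in each of 4 groups, all grown from 1 subclonal PC9 line. The cultures of a condition were split from a common flask, so p-values measure the spread between cultures of 1 starting population. Untreated WT cells carried wild-type TDP1 and received no drug. Drug-tolerant cells (DTC) carried wild-type TDP1 and had been kept for 7 days in erlotinib at 1 µM, an inhibitor of the EGFR kinase. Drug-tolerant expanded cells (DTEC) had wild-type TDP1 too and had spent 28 days in erlotinib at 1 µM. KO cells received no drug and came from KO2, a line with TDP1 knocked out and the only knockout line sequenced, so what the loss of TDP1 does and what this line carries besides cannot be told apart. TDP1 is the enzyme that removes trapped topoisomerase I from DNA ends, and the study is about such cleavage complexes in cells that tolerate EGFR inhibitors.

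Cells detect misplaced nucleic acid by 2 main routes that meet at shared enzymes. DNA in the cytosol is bound by cGAS (gene CGAS), which makes the messenger cGAMP, and cGAMP activates the membrane protein STING (gene STING1). Viral-type or other unusual RNA is bound by RIG-I (gene RIGI) or MDA5 (gene IFIH1), which act through MAVS on the mitochondrial surface. Both routes use the kinase TBK1 to phosphorylate the transcription factor IRF3, which switches on interferon beta and related genes. IRF7 carries the same signal in cells already exposed to interferon. RIGI, IFIH1 and IRF7 are themselves textbook interferon-inducible genes. TREX1 is an exonuclease that degrades cytosolic DNA, and ZBP1 binds left-handed nucleic acid and can trigger necroptosis.

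The promoters of 3 of these genes are shown because they set 2 sensors that rose in DTC (RIGI and IFIH1, described further on) beside an adaptor that was not called (MAVS). The RefSeq promoter table (build GRCh38.p14) held 5 of the 10 genes, namely RIGI, IFIH1, MAVS, TBK1 and TREX1. Each window runs from 250 bases before to 50 bases after the RefSeq start, and the part printed here lies before the start. For RIGI and MAVS it stops where the outermost GENCODE 29 transcript begins. The RIGI sequence is at chr9:32526325-32526446 (minus strand), that of IFIH1 at chr2:162318685-162318934 (minus strand) and that of MAVS at chr20:3846584-3846798 (plus strand). Capitals mark matches on either strand to the core of the interferon-stimulated response element (GAAA, any 2 bases, GAAA), to GAAANGAAA, which has a shorter gap, or to the kappaB motif. In IFIH1 the first run of capitals holds 2 overlapping matches to the response element.
RIGI: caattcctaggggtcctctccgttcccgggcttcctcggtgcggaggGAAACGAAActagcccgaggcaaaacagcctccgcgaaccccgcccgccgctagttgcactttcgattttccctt
IFIH1: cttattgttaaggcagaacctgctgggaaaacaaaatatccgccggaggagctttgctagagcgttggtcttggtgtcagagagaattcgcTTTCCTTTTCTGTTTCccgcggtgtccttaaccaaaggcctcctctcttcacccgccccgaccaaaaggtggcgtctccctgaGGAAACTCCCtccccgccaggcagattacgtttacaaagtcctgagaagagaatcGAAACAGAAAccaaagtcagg
MAVS: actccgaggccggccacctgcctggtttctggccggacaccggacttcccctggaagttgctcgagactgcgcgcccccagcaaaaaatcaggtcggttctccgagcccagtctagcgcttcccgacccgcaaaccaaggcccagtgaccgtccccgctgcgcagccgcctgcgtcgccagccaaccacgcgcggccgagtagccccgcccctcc

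In IFIH1 the match nearest the start, GAAACAGAAA, began 21 bases before it, where a GENCODE 29 transcript begins 19 bases before it, so most of this match lies inside that transcript, and the kappaB match began 76 bases before it. In RIGI the match GAAACGAAA began 203 bases before the start. RIGI also had a kappaB match that began 76 bases before the RefSeq start, inside longer annotated transcripts and so not printed. No match to these 3 motifs was found in the 300-base windows of MAVS, TBK1 or TREX1. Among 35116 promoter windows of the same length, 3.57% held the response element core, 3.12% held GAAANGAAA and 11.3% held the kappaB motif. GAAANGAAA was added after the promoters had been seen, so its share cannot be read as a test of the RIGI match. The response element core was found in 6 of 11 windows of the IRF and NF-kB output genes described further on (CXCL10, IFIT1, IFIT3, ISG15, MX1 and RSAD2). All of these except MX1 were called higher in DTC. Matches were also found in pathway genes called lower in DTC, such as EIF2AK2 (response element core, log2 fold change -0.46, adjusted p 0.0126), TRIM25 and PNPT1 (GAAANGAAA, -1.10 and -1.47, edgeR adjusted p 2.27e-06 and 7.07e-09). The promoters shown were chosen for how their genes changed. A match is a description of the letters and was not tested as a binding site.

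The libraries held 25572691 to 38373679 estimated counts. Levels are given as CPM, each library's counts brought to a common total after TMM scaling, and 3 counts, taken as the counting floor, were worth 0.0824 to 0.115 CPM in the 12 libraries. TDP1 averaged 26.3 ± 1.60 CPM (SD, n = 3) without drug in wild-type cells and 10.8 ± 0.648 in KO (edgeR quasi-likelihood adjusted p 1.31e-05), so TDP1 RNA was lower but present in the knockout line. It was also low in DTC, which have wild-type TDP1 (13.96 ± 1.555 CPM), and stood at 26.6 ± 1.54 in DTEC. The epithelial markers EPCAM, KRT8, KRT18, KRT19 and CDH1 summed to 4465 to 10260 CPM over the 12 libraries and were lowest in DTC (4465 to 5022). Of the immune markers, CD14 averaged 0.173 CPM in untreated WT and 0.738 in DTC (log2 fold change 2.07, edgeR adjusted p 0.0432), and LYZ 0.217 and 1.36 (2.60, adjusted p 0.00182). Both were thus called higher in DTC. PTPRC, the defining leukocyte marker, had 0, 0 and 2 counts in untreated WT and 1, 5 and 3 in DTC, and CD3E had 0 in untreated WT and 2, 0 and 0 in DTC. Neither of these passed the filter. The 5 fibroblast markers summed to 7.99 to 8.91 CPM in untreated WT, 54.9 to 57.6 after 7 days of drug, 11.2 to 14.1 after 28 days and 13.4 to 15.1 in the knockout line, with COL1A2 and DCN at the floor. LUM averaged 0 CPM in untreated WT and 0.430 in DTC, and PDGFRB 0.106 and 0.198. Nearly all of each sum was COL1A1, at 8.30 CPM in untreated WT, 55.7 after 7 days, 12.4 after 28 days and 13.8 in the knockout line. The 4 endothelial markers summed to 58.5 to 61.4, 42.2 to 50.1, 122 to 142 and 75.8 to 77.3 CPM in the same order. Their directions differed in DTC. PECAM1 averaged 32.03 CPM in untreated WT, 8.768 in DTC and 92.07 in DTEC, where it made up most of the sum. CDH5 averaged 27.73 CPM in untreated WT and 34.96 in DTC, a change that was not called (edgeR adjusted p 0.109). VWF averaged 0.1222 and 1.573 CPM in untreated WT and DTC, and KDR 0 and 0.5842. After 7 days of drug, mitochondrial genes took 4.43% to 5.41% of all counts, against 2.5% to 2.77% without drug, 1.82% to 2.38% after 28 days and 2.59% to 2.78% for the knockout line. The DTC libraries also had more genes detected (23451 to 24349, against 21052 to 21584 without drug). The part of the markers, the mitochondrial share and the genes detected in the results was not tested. DTC replicate 1 stood apart from the other DTC libraries, with a chi-square per degree of freedom of 118 and 73.1 against them where those 2 differed by 17.5. Fewer cells with a transcript and less transcript per cell cannot be told apart in these bulk samples.

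Of the 10 genes, 9 passed the filter on low counts and ZBP1 did not. ZBP1 had 0 or 1 count in every library, 4 counts in all, which allows a level of up to 0.115 CPM in the shallowest library. The other 9 genes were compared between groups with edgeR's quasi-likelihood test on all 12 libraries, with a call at an adjusted p below 0.05 over all 17115 genes tested. DTC, DTEC and KO were each set against the same 3 untreated WT libraries. Values per library are shown in the plot of levels by group.

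**Figure D1:**
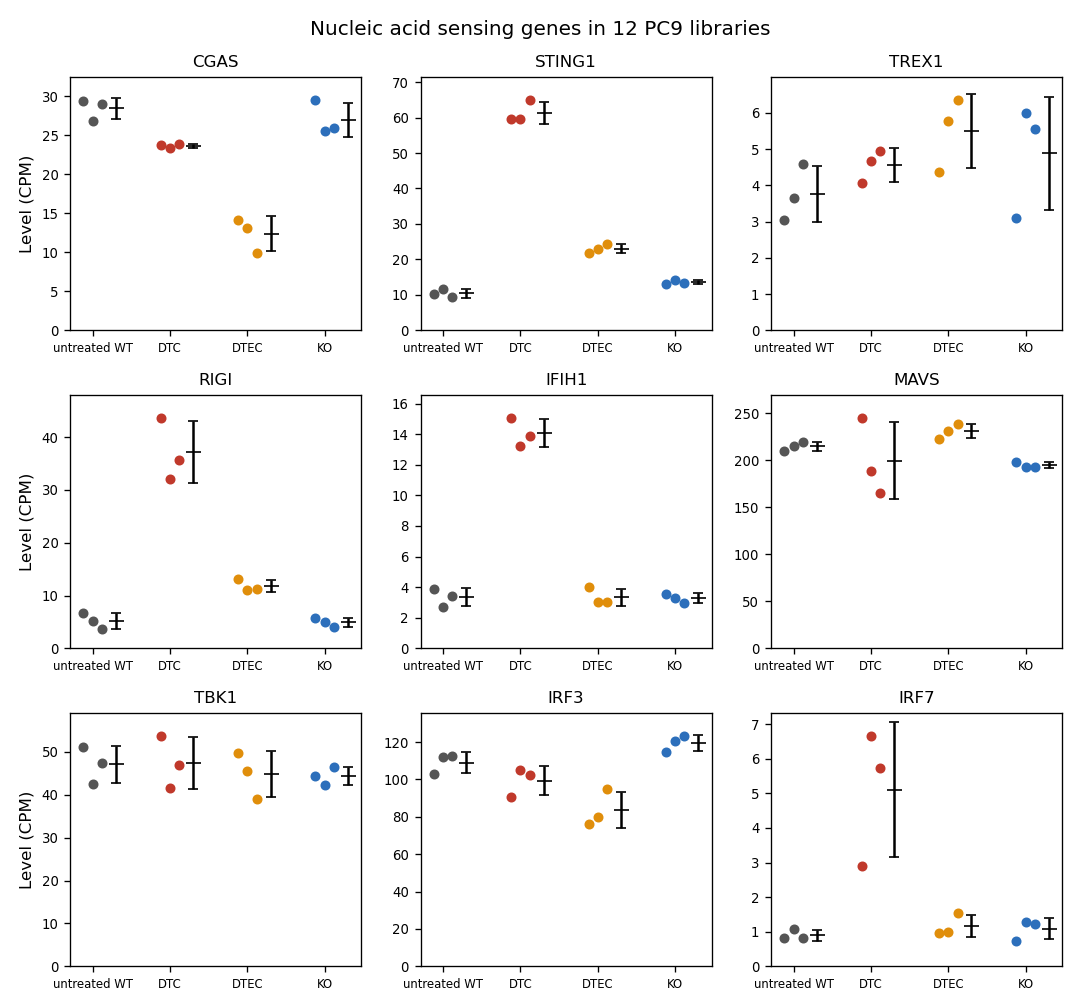
Level in CPM (vertical axes, from 0, a separate scale for each gene) of the 9 tested sensing genes in untreated WT, DTC, DTEC and KO. Each point is 1 library and the black bar beside it is the mean with its SD (n = 3). STING1, RIGI, IFIH1 and IRF7 stand highest in all 3 DTC libraries, and CGAS is lowest in all 3 DTEC libraries.

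After 7 days of erlotinib the DNA-route adaptor, both RNA sensors and the inducible transcription factor were higher, while the DNA sensor, the RNA-route adaptor, the shared kinase and IRF3 were not called. Of the 9 tested genes 4 were called (STING1, RIGI, IFIH1 and IRF7), all higher and all by more than 2-fold, against 67.3% of all tested genes called, 34.0% called higher, 33.3% called lower and 22.3% called higher at 2-fold. In these 4 genes every DTC library was above every untreated one, as in 35.1% of all tested genes, and in CGAS every one was below, as in 33.8%. The median log2 fold change of the 9 was 0.28, beside 0.055 for all tested genes.

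STING1 (ENSG00000184584, chromosome 5, 139475534 to 139482935, GRCh38) encodes the receptor for cGAMP. It was at 10.1, 11.7 and 9.35 CPM in untreated WT replicates 1, 2 and 3 and at 59.5, 59.5 and 64.9 in DTC. Every DTC library was above every untreated library. The log2 fold change was 2.56 (SE 0.108, edgeR adjusted p 2.12e-10), a 5.91-fold difference (95% interval 5.03 to 6.93).

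RIGI (ENSG00000107201, chromosome 9, 32455705 to 32526324, GRCh38) encodes the sensor of short RNA with a 5′ triphosphate. Its levels were 6.63, 5.26 and 3.63 CPM in untreated WT and 43.6, 32.1 and 35.6 in DTC. These groups did not overlap, and the log2 fold change was 2.84 (SE 0.2, adjusted p 2.1e-08), or 7.17-fold (5.32 to 9.65). None of the 12 deposited values was exactly a whole number for RIGI, and the same held for MAVS, TBK1 and TREX1, whose values are estimates.

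IFIH1 (ENSG00000115267, chromosome 2, 162267079 to 162318703, GRCh38), the sensor of long double-stranded RNA, was at 3.85, 2.70 and 3.43 CPM in untreated WT and at 15, 13.3 and 13.9 in DTC. The DTC libraries lay above all untreated libraries and close to each other. IFIH1 rose by 2.07 on the log2 scale (SE 0.166, adjusted p 7e-08), or 4.21-fold (3.29 to 5.39).

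IRF7 (ENSG00000185507, chromosome 11, 612553 to 615999, GRCh38) was the least abundant of the 9 genes in untreated cells, with 27 to 32 counts per untreated WT library. Its levels were 0.807, 1.08 and 0.808 CPM there and 2.91, 6.65 and 5.75 in DTC. DTC replicate 1 was the lowest of the 3 treated libraries but was still above every untreated one. The log2 fold change was 2.51 (SE 0.332, adjusted p 1.12e-05), or 5.69-fold (3.48 to 9.33). Without DTC replicate 1 the log2 fold changes were 2.62 for STING1, 2.75 for RIGI, 2.06 for IFIH1 and 2.82 for IRF7, and all 4 were called.

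The remaining 5 tested genes gave log2 fold changes between -0.27 and 0.28 in DTC. CGAS (ENSG00000164430, chromosome 6, 73413515 to 73452276, GRCh38) was at 29.5, 26.9 and 29.1 CPM in untreated WT and at 23.8, 23.4 and 23.8 in DTC. All DTC libraries were below all untreated ones, but the change was not called (-0.27, 95% interval -0.53 to -0.0034, adjusted p 0.068). Without DTEC replicate 3 it was called (-0.23, adjusted p 0.0396). TBK1 (ENSG00000183735, chromosome 12, 64451880 to 64502108, GRCh38) was at 51.2, 42.6 and 47.5 CPM in untreated WT and at 53.7, 41.5 and 47.0 in DTC, 2 sets of libraries that overlapped fully. Its log2 fold change was 0.0078 (fold interval 0.842 to 1.20, adjusted p 0.959).

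MAVS (ENSG00000088888, chromosome 20, 3846799 to 3876123, GRCh38) was at 210, 215 and 220 CPM in untreated WT and at 245, 189 and 165 in DTC, where replicate 1 was highest. The fold was 0.929 (0.778 to 1.11, adjusted p 0.441). Without DTC replicate 1 MAVS was called lower (-0.25, adjusted p 0.00936). IRF3 (ENSG00000126456, chromosome 19, 49659569 to 49665875, GRCh38) was at 103, 112 and 113 CPM in untreated WT and at 90.6, 105 and 103 in DTC, with a fold of 0.912 (0.783 to 1.06, adjusted p 0.26). TREX1 (ENSG00000213689, chromosome 3, 48465811 to 48467645, GRCh38) was at 3.05, 3.64 and 4.59 CPM in untreated WT and at 4.06, 4.68 and 4.96 in DTC, with a fold of 1.21 (0.849 to 1.74, adjusted p 0.318).

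These small differences depended on the scaling. With total counts alone as the scale, the all-gene median in DTC shifted by 0.35 (log2), and 68.4% of calls were higher instead of 50.5%. With the upper quartile the shift was 0.29 and 65.0% of calls were higher. Under total counts alone and under the upper quartile, CGAS (0.09 and 0.02), MAVS (0.25 and 0.18) and IRF3 (0.22 and 0.16) had the opposite sign and were not called. TBK1 was called higher under both (0.36, adjusted p 0.0137, and 0.29, adjusted p 0.0325), and TREX1 under total counts alone (0.63, adjusted p 0.0316). The 4 genes called in DTC kept direction and call in each of the 20 alternatives run.

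**Figure D2:**
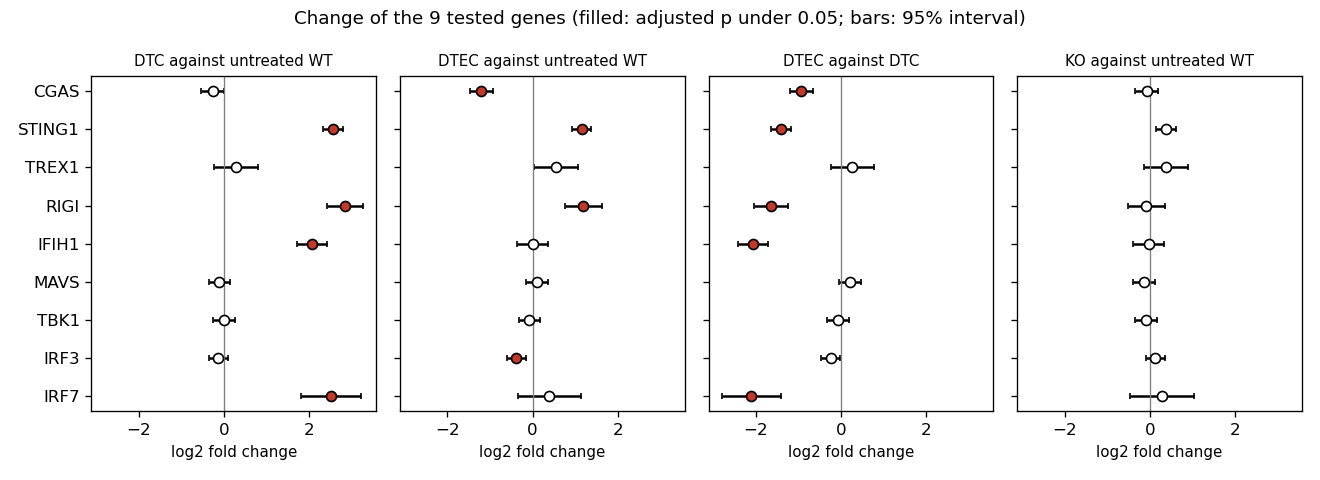
Log2 fold change (horizontal axes) of the 9 tested genes in the 4 comparisons, with 95% intervals from the edgeR fit, and filled points where the adjusted p was under 0.05. STING1, RIGI, IFIH1 and IRF7 lie between 2.07 and 2.84 in DTC, CGAS at -1.20 in DTEC, and no point is filled in KO.

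After 28 days of erlotinib the cells held less CGAS and IRF3 RNA than untreated cells and more STING1 and RIGI RNA, while IFIH1 and IRF7 overlapped the untreated libraries. Of the 9 tested genes 4 were called against untreated WT, 2 higher and 2 lower, beside 52.3% of all tested genes called, 26.0% higher and 26.3% lower. At 2-fold, 2 were higher (13.2% of all tested genes) and 1 was lower (6.70%). All DTEC libraries were above all untreated ones in STING1, RIGI and MAVS (31.1% of all tested genes) and below them in CGAS and IRF3 (31.3%). The median over the 9 genes was 0.1, and that over all genes 0.018.

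CGAS was at 14.2, 13.1 and 9.87 CPM in the 3 DTEC libraries. They lay below all untreated and all DTC libraries, with a fitted fold of 0.434 (95% interval 0.360 to 0.523) against untreated WT. The log2 fold change was -1.20 (SE 0.126, adjusted p 2.77e-06), and it was called in each of the 20 alternatives, with values from -1.3 to -1.04. IRF3 was at 76.1, 80.1 and 94.7 CPM in DTEC, all below the untreated libraries. Its fold was 0.767 (0.659 to 0.893, log2 fold change -0.38, adjusted p 0.00608), a call lost when scaling by total counts alone (-0.22, adjusted p 0.0924). IRF3 shares 19.3% of its exon bases with BCL2L12 on the opposite strand. BCL2L12 averaged 65.5 ± 2.82 CPM (SD, n = 3) without drug and 29.2 ± 6.54 in DTEC, and its part in the IRF3 values was not tested.

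STING1 was at 21.7, 23.0 and 24.3 CPM in DTEC, above every untreated and below every DTC library. RIGI was at 13.1, 11.1 and 11.3 CPM, also between those groups without overlap. Against untreated WT the folds were 2.21 for STING1 (1.89 to 2.59, adjusted p 8.52e-07) and 2.29 for RIGI (1.71 to 3.07, adjusted p 0.000169). Without untreated WT replicate 3 the log2 fold change of RIGI was 0.999, just under 2-fold, so that 2 of the 9 genes, STING1 and CGAS, were past 2-fold. IFIH1 was at 3.99, 3.02 and 3.02 CPM, a fold of 1.00 (0.780 to 1.29, adjusted p 0.982) against untreated WT. IRF7 was at 0.974, 0.993 and 1.54 CPM, a fold of 1.31 (0.786 to 2.20, adjusted p 0.357).

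TREX1 was at 4.35, 5.77 and 6.35 CPM in DTEC and overlapped the untreated libraries at 1 point, replicate 1. Its fold of 1.46 (1.02 to 2.08, log2 fold change 0.55) was not called (adjusted p 0.0702), yet it was called in 8 of 20 alternatives, among them the fit with a replicate block (adjusted p 0.0156). All 1515 exon bases of TREX1 also belong to the annotated gene ATRIP on the same strand, and none of its 12 deposited values was whole, so the TREX1 values are uncertain. ATRIP averaged 17.6 ± 1.29 CPM (SD, n = 3) without drug and 10.1 ± 1.38 in DTEC. TBK1, at 49.8, 45.6 and 39.1 CPM, and MAVS, at 223, 231 and 238, were not called in DTEC (folds 0.951, 0.796 to 1.14, and 1.07, 0.900 to 1.28).

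Set directly against DTC, DTEC had lower levels of all 4 genes that rose at 7 days, and of CGAS. Of the 9 genes 5 were called, all lower, beside 55.4% of all tested genes called and 26.6% called lower. At 2-fold 4 of 9 were lower, beside 14.3%, and 0 higher, beside 8.10%. IRF7 fell by 2.12 on the log2 scale (SE 0.324, adjusted p 8.03e-05), IFIH1 by 2.07 (SE 0.166, adjusted p 1.94e-07), RIGI by 1.65 (SE 0.188, adjusted p 5.73e-06), STING1 by 1.41 (SE 0.103, adjusted p 7.41e-08) and CGAS by 0.94 (SE 0.126, adjusted p 2.45e-05). In each of these 5 genes all DTEC libraries were below all DTC libraries, as in 27.7% of all tested genes. IRF3 (-0.25, adjusted p 0.052) was called in 8 of the 20 alternatives, including the replicate block (adjusted p 0.0248). MAVS was called higher in DTEC only without DTC replicate 1 (0.37, adjusted p 0.000647).

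The balance between DNA sensor and adaptor can be read within each library, where scaling has no part. Per CGAS read, STING1 had 0.321 to 0.435 reads without drug, 2.5 to 2.72 after 7 days, 1.53 to 2.46 after 28 days and 0.439 to 0.551 in the knockout line. Both treated groups lay above both untreated groups without overlap. Per MAVS read, RIGI had 0.0166 to 0.0316 reads without drug, 0.170 to 0.216 after 7 days, 0.0474 to 0.0587 after 28 days and 0.0208 to 0.029 in the knockout line. The ratio of RIGI to MAVS was thus higher in DTEC than in untreated WT in 3 of 3 libraries, and lower than in DTC in 3 of 3. Per IRF3 read, IRF7 had 0.00717 to 0.00965 reads without drug, 0.0321 to 0.0635 after 7 days, 0.0124 to 0.0163 after 28 days and 0.00644 to 0.0108 in the knockout line.

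Levels of different genes were compared as CPM per kb of exon, from the exon lengths of GENCODE 29. In untreated WT the order was IRF3 (28.7 ± 1.45 CPM per kb, SD, n = 3), MAVS (18.3 ± 0.412), TBK1 (9.89 ± 0.906), CGAS (6.85 ± 0.335), STING1 (2.70 ± 0.312), TREX1 (2.48 ± 0.512), RIGI (1.19 ± 0.345), IFIH1 (0.651 ± 0.115), IRF7 (0.342 ± 0.0597) and ZBP1. STING1 and TREX1 were the only neighbours whose libraries overlapped. In DTC STING1 was at 15.9 ± 0.806 CPM per kb, next after MAVS and overlapping it, and RIGI was at 8.52 ± 1.35, next after TBK1 and overlapping it. CGAS had moved from the fourth to the sixth place. In DTEC CGAS (2.98 ± 0.538 CPM per kb) overlapped both TREX1 above it and RIGI below it, and STING1 (5.97 ± 0.335) stood above all 3 of these genes without overlap. KO had the order of untreated WT.

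**Figure D3:**
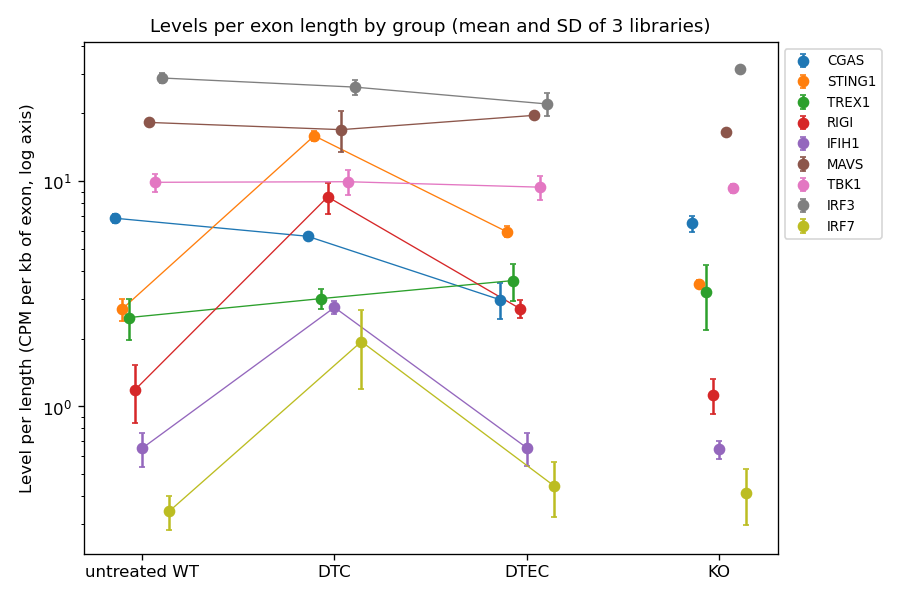
Level per exon length (vertical axis, CPM per kb of exon, log scale) of the 9 tested genes in the 4 groups, as mean and SD of 3 libraries, with lines joining the wild-type groups. STING1 and RIGI rise through the order in DTC, and IRF3, MAVS and TBK1 stay the most abundant with STING1 among them.

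The knockout line without drug was compared with untreated WT to ask what differed in these genes when TDP1 was disrupted. None of the 9 tested genes was called by edgeR, beside 4.32% of all tested genes called. At 2-fold 0 were higher, beside 0.970%, and 0 lower, beside 0.339%. At an unadjusted p under 0.05 there was 1, STING1, beside 16.7% of all tested genes, and DESeq2 also called 1. STING1 was at 13.0, 14.1 and 13.5 CPM in KO, above all 3 untreated WT libraries, with a fold of 1.3 (1.11 to 1.52, log2 fold change 0.38, adjusted p 0.062). It was called in 6 of 20 alternatives, with adjusted p over all of them from 0.0174 with the 2 groups fitted alone to 0.254.

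CGAS was at 29.5, 25.5 and 25.9 CPM in KO (fold 0.948, 0.791 to 1.14). RIGI was at 5.76, 4.92 and 4.01 (0.944, 0.697 to 1.28) and IFIH1 at 3.58, 3.30 and 2.99 (0.985, 0.765 to 1.27). The libraries of these 3 sensors overlapped those of untreated WT. All 3 KO libraries were lower than untreated WT in MAVS (198, 193 and 193 CPM, fold 0.907, 0.760 to 1.08) and higher in IRF3 (115, 120 and 123.1 CPM, fold 1.09, 0.941 to 1.27), with intervals that include no change. Across all tested genes 19.9% had all KO libraries lower and 15.8% all higher. TBK1 (0.943, 0.790 to 1.13), TREX1 (1.3, 0.910 to 1.86) and IRF7 (1.22, 0.725 to 2.04) overlapped between groups.

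The wider pathways were described with 6 lists of 88 genes in all, of which 78 were tested. In DTC 40 were called higher and 26 lower (66 of 78, beside 67.3% of all tested genes). In DTEC against untreated WT 31 were higher and 23 lower, beside 26.0% and 26.3% of all tested genes. In DTEC against DTC 14 were higher and 37 lower, beside 28.8% and 26.6%. The lists were chosen with earlier results known, and no list was tested against the other genes. In KO 5 were called higher and 1 lower, beside 2.77% and 1.55% of all tested genes. Total counts alone called 13 in KO and the 2 groups fitted alone 17. The fit of the 2 groups alone also called more genes in all, 2656 against 739 in the fit reported.

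Among the transcription factors and receptors of interferon signalling, 10 of 12 tested genes were called higher and 1 lower in DTC (median log2 fold change 0.96), beside 34.0% and 33.3% of all tested genes. IRF9 and STAT2, partners in the factor that drives interferon-stimulated genes, rose most, to 17.1 ± 4.59 CPM from 1.88 ± 0.252 (log2 fold change 3.18, adjusted p 1.29e-08) and to 91.1 ± 8.06 from 13.0 ± 1.99 (2.81, adjusted p 5.82e-10). In DTEC both remained above untreated WT, at 6.30 ± 1.06 and 40.9 ± 2.87 CPM (1.74, adjusted p 1.12e-05, and 1.65, adjusted p 2.18e-07). IRF9 fell by 1.43 from DTC to DTEC (adjusted p 2.59e-05) and IRF5, another factor of the family, by 1.98 (adjusted p 3.22e-05). In KO none of the 12 was called, beside 4.32% of all tested genes. The interferon genes themselves were at or near 0: IFNB1 had 3 counts over the 3 DTC libraries, IFNL1 2, IFNL2 5 and IFNL3 2, and all 4 had 0 counts in each of the other 9 libraries. For IFNE, 10 counts were found over the untreated WT libraries, 25 over DTC, 2 over DTEC and 2 over KO. None of these 5 passed the filter, so none was tested.

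Next are genes that IRF3, IRF7 or NF-kB switch on. In DTC 12 of 13 were called higher, beside 34.0% of all tested genes (median 4.0, or 3.99 if genes at the floor take their bound), and in DTEC 8 higher and 1 lower (median 1.24), beside 26.0% and 26.3%. MX1 was the gene not called in DTC (log2 fold change 0.34, edgeR adjusted p 0.154). It averaged 1.38 ± 0.151 CPM in untreated WT, 1.75 ± 0.215 in DTC and 3.25 ± 0.380 in DTEC, where it was highest. CXCL10, a chemokine that attracts T cells, had 0 counts in untreated WT and 52, 109 and 98 in DTC, at least 28.3-fold higher against a floor of 3 counts per library (adjusted p 1.01e-06). RSAD2, an antiviral enzyme, had 0 counts in untreated WT and 11, 11 and 19 in DTC, at least 4.52-fold higher (adjusted p 0.000773). In DTEC CXCL10 was down to 1, 2 and 4 counts. It was still among the 8 genes called higher than in untreated WT (edgeR adjusted p 0.0195). Both of these groups averaged at or under the floor for CXCL10, so no fold is given. TNF, the inflammatory cytokine, was down to 3, 4 and 3 counts in DTEC from 36, 59 and 49 in DTC. Against the single TNF count of untreated WT the DTEC ratio was 10.3 (exact 95% counting interval 1.46 to 445, adjusted p 0.00975). IL6 was at 10.5, 18.4 and 15.5 CPM in DTC and fell by 4.98 on the log2 scale in DTEC (adjusted p 1.23e-07). CXCL10 itself fell by 5.09 (adjusted p 1.08e-05), and in that comparison 12 of the 13 genes were called lower (median -3.23), beside 26.6% of all tested genes.

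Of the other RNA sensors and their regulators, 8 of 17 were called higher and 9 lower in DTC (median -0.36), beside 34.0% and 33.3% of all tested genes. OAS2, which makes the activator of RNase L, went from 1 count over 3 untreated libraries to 99, 130 and 175 counts, a ratio of 404 (exact 95% counting interval 72.2 to 16020, adjusted p 2.23e-08). DHX58, the regulator LGP2 of the RIG-I family, went from 1 count to 18, 14 and 23, a ratio of 55.1 (9.48 to 2214, adjusted p 0.000753). In DTEC 6 were higher and 4 lower than in untreated WT (median -0.16), beside 26.0% and 26.3%. DHX58 had 22, 8 and 1 counts there and OAS2 9, 7 and 8, ratios of 31.8 (5.30 to 1295, adjusted p 0.00512) and 24.6 (4.01 to 1012, adjusted p 0.000416) with intervals for counting error only. From DTC to DTEC OAS2 fell by 4.0 (adjusted p 1.12e-06) and OASL by 3.17 (adjusted p 1.07e-06).

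Of the adaptors and kinases, 6 of 15 were called higher and 5 lower in DTC, near the 34.0% and 33.3% of all tested genes, with the same median as all genes (0.055). OPTN, an autophagy receptor that TBK1 phosphorylates, rose to 59.2 ± 6.66 CPM from 3.14 ± 0.539 (log2 fold change 4.23, adjusted p 1.86e-10). IKBKE, the kinase closest in sequence to TBK1, rose to 23.2 ± 0.605 CPM from 5.38 ± 0.552 (2.11, adjusted p 2.36e-09), where TBK1 itself overlapped between the groups. In DTEC 5 were called higher and 6 lower (median 0.029), beside 26.0% and 26.3%, with OPTN still higher (2.18, adjusted p 1.88e-07) and MLKL, the necroptosis effector, lower (-1.46, adjusted p 2.26e-07). OPTN fell by 2.05 and IKBKE by 1.43 from DTC to DTEC (adjusted p 1.05e-07 and 1.82e-07).

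Of the other DNA-sensing genes, 6 of 10 were called lower and 1 higher in DTC (median -0.48), beside 33.3% and 34.0% of all tested genes. In DTEC 5 were lower and 2 higher (median -0.48), beside 26.3% and 26.0%. SLC19A1, a folate carrier that also imports cGAMP, fell by 2.59 in DTC and 1.54 in DTEC (adjusted p 1.65e-08 and 4.81e-06). PQBP1, which binds retroviral DNA for cGAS, fell by 0.87 in DTC (adjusted p 5.27e-05), and the helicase DDX41 by 0.70 in DTEC (adjusted p 0.000234). From DTC to DTEC SLC19A1 rose by 1.05 (adjusted p 0.000159), and IFI16 went from 23 counts over 3 libraries to 1 (ratio 0.0445, exact 95% counting interval 0.00108 to 0.274, adjusted p 0.0038).

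Enzymes that clear or edit nucleic acids gave 3 calls higher and 5 lower of 11 in DTC (median 0.047), beside 34.0% and 33.3% of all tested genes. In DTEC 2 were higher and 5 lower (median -0.24), beside 26.0% and 26.3%. DNASE2, the lysosomal DNase, rose by 1.25 in DTC and 1.47 in DTEC (adjusted p 3e-08 and 3.18e-08). PNPT1, which degrades mitochondrial RNA, fell by 1.47 and 1.11 (adjusted p 7.07e-09 and 3.19e-07). RNASEH2C, a subunit of RNase H2, fell by 0.94 from DTC to DTEC (adjusted p 0.00147), and BANF1, which coats DNA against cGAS, rose by 0.61 (adjusted p 0.00045). In KO none of the 11 was called, beside 4.32% of all tested genes.

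**Figure D4:**
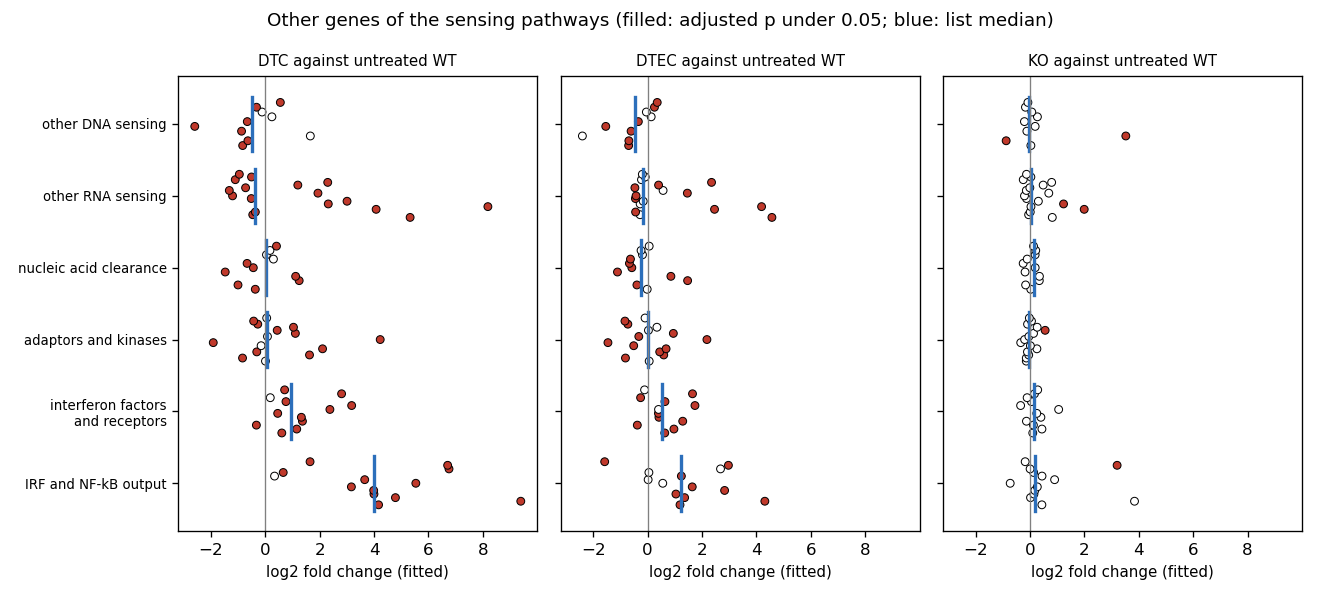
Fitted log2 fold changes (horizontal axes) of the 78 tested genes of the 6 lists in DTC, DTEC and KO against untreated WT. Each point is a gene, filled where the adjusted p was under 0.05, blue bars are list medians, and fitted values of genes at the counting floor are no bounds. In DTC the output list has its median at 4.0, and in KO 6 points are filled.

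In KO the 6 called pathway genes were IFI16, ENPP1, OAS1, OAS3, TBKBP1 and TNF. IFI16, a nuclear and cytosolic DNA sensor, had 3, 4 and 0 counts in untreated WT and 23, 23 and 38 in KO (log2 fold change 3.52, SE 0.678, adjusted p 0.00901). OAS1 was at 0.747, 0.776 and 0.721 CPM in untreated WT and 2.63, 3.33 and 2.96 in KO (1.99, SE 0.251, adjusted p 0.00045). OAS3 rose from 5.81 ± 0.685 to 13.6 ± 1.54 CPM (1.23, adjusted p 0.00026). These 3 genes were higher in every KO library than in any untreated WT library. TBKBP1, a TBK1 adaptor, rose by 0.55 (adjusted p 0.0271), and ENPP1, which hydrolyses cGAMP outside cells, fell by 0.88 (adjusted p 0.00402). TNF had 1 count in untreated WT and 3, 4 and 5 in KO, a ratio of 12.3 (exact 95% counting interval 1.82 to 525, adjusted p 0.0451).

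For the 3 genes with the widest range between group means, the genes of most similar level across the 12 libraries were found among 9794 genes with a mean of at least 10 CPM. Likeness was Pearson's r of log2 CPM over the 12 libraries, which fall into 4 groups, so r mostly reflects the group means. For RIGI they were MAP2 (r 0.986), TRAFD1 (0.985) and WIPI1 (0.985). For STING1 they were TUBA1A, PDGFB and HSPA2 (0.992 each). For IRF7 they were MYL6 (0.972), CHKB (0.972) and GAS6 (0.970). Among the 9 genes themselves STING1 and RIGI had an r of 0.968, STING1 and IRF7 0.903, and STING1 and CGAS -0.27.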

How the data were processed

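The deposited table gives expected counts, estimated reads per gene that the authors did not scale to depth. RSEM 1.3.1, Bowtie2 2.5.2, DESeq2 1.40.2 and the build GRCh38 are named in the submitters' processing notes, without their roles. The annotation, strand setting and filters are not given in the sources used here. Libraries were made with a stranded polyadenylated RNA kit and belong to 1 batch, per the labels. Symbols were found for 62700 of 62754 identifiers, and coordinates and exon lengths come from GENCODE 29 (58261 identifiers).

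After rounding, edgeR 4.0.16 was run under R 4.3.3 (filterByExpr, TMM scaling, 1 mean per group, robust quasi-likelihood F test, Benjamini-Hochberg adjustment over 17115 genes, calls at an adjusted p under 0.05). The procedure was also run on simulated data in which a small set of genes changed, in DTC alone. Such data cannot check the scaling where most genes change. Intervals of folds are 95% intervals of that fit, and floors and counting intervals cover counting error only. Alternatives were other scalings, other count filters, DESeq2 1.42.0, the compared groups alone, the replicate block and leaving out each library. The GAAANGAAA motif was added after the promoters had been seen.

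The 10 genes and the lists were chosen with earlier results of these data known. All 10 genes are named. From each list the 2 called genes with the largest absolute change are named per comparison. The summed level of the immune marker list is not reported here.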

Additional observations from a re-analysis of the deposited data

Results flagged for a closer look

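For 5 of the 9 tested genes the change after 28 days of erlotinib differed from the change after 7 days, by the direct test of DTEC against DTC. In that test 55.4% of all tested genes were called, a similar share. The 5 genes were picked by their adjusted p in it, so the p-values below restate that choice. The difference on the log2 scale was -0.938 for CGAS, -1.41 for STING1, -1.65 for RIGI, -2.07 for IFIH1 and -2.12 for IRF7, with edgeR adjusted p from 7.41e-08 for STING1 to 8.03e-05 for IRF7. The change against untreated WT moved from -0.27 to -1.20 for CGAS, whereas for the other 4 it moved toward 0.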

How the results depend on the processing

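Of 720 values for 36 log2 fold changes of the 9 tested genes, 663 kept their direction and call, 28 gained a call, 1 lost it (IRF3 in DTEC) and 28 changed sign, none of them called. Signs changed for CGAS in DTC (0.0895 on total counts, 0.0228 on the upper quartile), MAVS in DTC (0.247, 0.178), IRF3 in DTC (0.221, 0.156) and TBK1 in DTEC (0.0963, 0.0414) under the same settings. IFIH1 in KO, -0.022 in the fit reported, was 0.0481 on total counts, 0.00161 on the upper quartile, 0.0025 with no filter, 0.00149 with a mean of at least 10 counts and 0.00297 with the compared groups alone. Without single libraries TBK1 in DTC ran from -0.0545 to 0.156, MAVS in DTC from -0.245 to 0.058, TBK1 in DTEC from -0.136 to 0.00942, IFIH1 in DTEC from -0.121 to 0.14, IFIH1 in KO from -0.127 to 0.112 and RIGI in KO from -0.265 to 0.155. In KO the genes called numbered 739, but 1146 with no filter, 1153 with DESeq2, 2656 with the compared groups alone and 321 (without untreated WT replicate 1) to 1520 (without DTC replicate 1) without single libraries. Members called in KO numbered 1 with total counts, the upper quartile, DESeq2 and the compared groups alone, and 0 to 1 without single libraries. Pathway genes called in KO numbered 6, but 13, 10, 12 and 17 in those settings, and 4 to 16 without single libraries. The cause was not tested. On total counts 63.7% of the DTEC calls against untreated WT were higher (49.7% as reported), 37.4% of those against DTC (51.9%) and 78.8% of the KO calls (64.1%).

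Replicate numbers were not taken to pair the libraries, since the labels do not say that a number marks a shared batch. Same-numbered libraries were nevertheless somewhat more alike on average, and whether they were paired was not tested. Deviations of 18 same-numbered pairs correlated by -0.0303 to 0.179 (mean 0.0602) and those of 36 other pairs by -0.187 to 0.118 (mean -0.0299), and 7 of 12 libraries correlated best with their own number. With the replicate block the genes called numbered 11776 in DTC, 9254 in DTEC, 9733 in DTEC against DTC and 887 in KO, of 17115 tested. In the fit reported they numbered 11517, 8956, 9481 and 739. The members called with the block numbered 4 in DTC, 5 in DTEC, 6 in DTEC against DTC and 0 in KO. Depth limits ZBP1, IFNB1, IFNL1, IFNL2 and IFNL3, which had at most 3 counts in any library, and IFNE, which had at most 9.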

Other observations

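Necroptosis downstream of ZBP1 had 2 of its 3 core genes at the floor. RIPK3, the kinase between ZBP1 and MLKL, had 0 counts in all 12 libraries, which allows up to 0.115 CPM. MLKL averaged 43.6 ± 2.38 CPM (SD, n = 3) without drug, 11.6 ± 1.71 after 7 days, 15.9 ± 0.226 after 28 days and 34.3 ± 3.20 in the knockout line, and it fell by 1.91 on the log2 scale in DTC (edgeR adjusted p 5.83e-09).

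ENPP1 and SLC19A1 handle cGAMP outside the cell. ENPP1 averaged 23.3 ± 1.49 CPM without drug, 15 ± 3.96 after 7 days, 14.5 ± 0.873 after 28 days and 12.7 ± 0.778 in the knockout line, with all libraries of the last 3 groups below all untreated WT libraries. SLC19A1 averaged 67.2 ± 9.99, 11.2 ± 1.84, 23.1 ± 5.64 and 76.4 ± 4.06 CPM in the same order.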
